A study of Artemisia argyi with 3 samples.

Results

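The steady abundant unigenes of *A. argyi*, a mugwort of the Asteraceae whose dried leaves are burnt in moxibustion, were the assembled transcripts with an FPKM of at least 50 in leaves, roots and stems and with the highest of the 3 values below 1.5 times the lowest. FPKM is the number of sequenced fragments of a transcript, scaled by transcript length and by how many fragments its library mapped in all. A total of 304 of the 88,591 unigenes in the expression table met both limits. Unigene11410 was left out of all counts of abundant unigenes beforehand. The leaves, roots and stems came from mature plants, and the tissue of 5 plants was pooled into 1 library per tissue. There was therefore no replicate, no error can be given for any value, and no test between tissues was made. The members were chosen by the 3 deposited FPKM values, so their level and their evenness are descriptions and not findings. The table names no gene, so neither the function of a unigene nor the tissue labels could be checked against markers, and 1 value from a whole tissue cannot tell apart fewer cells of a type from less RNA per cell.

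Transcripts that all organs keep at a similar level are usually those of functions every living cell needs, such as translation, protein turnover, the cytoskeleton and core energy metabolism. Such constitutive transcripts are used as internal references when other transcripts are measured by quantitative PCR. Whether a transcript appears constant in sequencing data depends on what the libraries are scaled to, because each library reports shares of its own RNA and not molecules per cell. A few very abundant transcripts in 1 organ lower the apparent level of all the others there. The questions put to the 304 unigenes were therefore how even they were, whether they stayed even after other scalings, and whether the related contigs of their assembly clusters were even as well.

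The 304 unigenes spanned a wide range of levels. Their geometric mean over the tissues ran from 53.5 to 1006 FPKM, with a median of 98.3. There were 155 unigenes with a geometric mean below 100 FPKM, 86 between 100 and 200, 50 between 200 and 500, and 13 of at least 500. Together they held 6.43% of the FPKM sum in leaves, 6.88% in roots and 6.44% in stems. The fold limit on each of them favoured such near-even summed shares. The column sums themselves were 745,319 FPKM in leaves, 684,729 in roots and 732,443 in stems.

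The most abundant of them was Unigene15129, with 1296 FPKM in leaves, 867.6 in roots and 905.4 in stems. Its leaf value stood apart from the other tissues, and at 1.494-fold it was also among the unigenes closest to the upper limit of evenness. Unigene4830 had 776.5 FPKM in leaves, 741.8 in roots and 977.1 in stems, and Unigene13655 had 762.9, 643.2 and 906.9 FPKM in the same order. Both were highest in stems and lowest in roots. Unigene19765 was at 793.3 FPKM in leaves, 631.8 in roots and 670.4 in stems. Unigene19708, with 571.5 FPKM in leaves, 610.5 in roots and 721.9 in stems, and Unigene19771, with 548.8, 590.6 and 718.6 FPKM, had nearly the same profile, lowest in leaves and highest in stems. Unigene32516 had 570.0 FPKM in leaves, 618.9 in roots and 624.2 in stems, and Unigene13611 had 595.2, 617.1 and 576.6. These were the most even of the 10 most abundant, at 1.095-fold and 1.07-fold. Unigene5676 was lower in stems, with 655.7 FPKM in leaves, 644.6 in roots and 445.1 in stems. Unigene7374 was lowest in stems too, by less, with 609.8 FPKM in leaves, 571.4 in roots and 524.0 in stems. All 10 are singletons, meaning that the assembly placed them in no cluster of similar contigs.

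**Figure D1:**
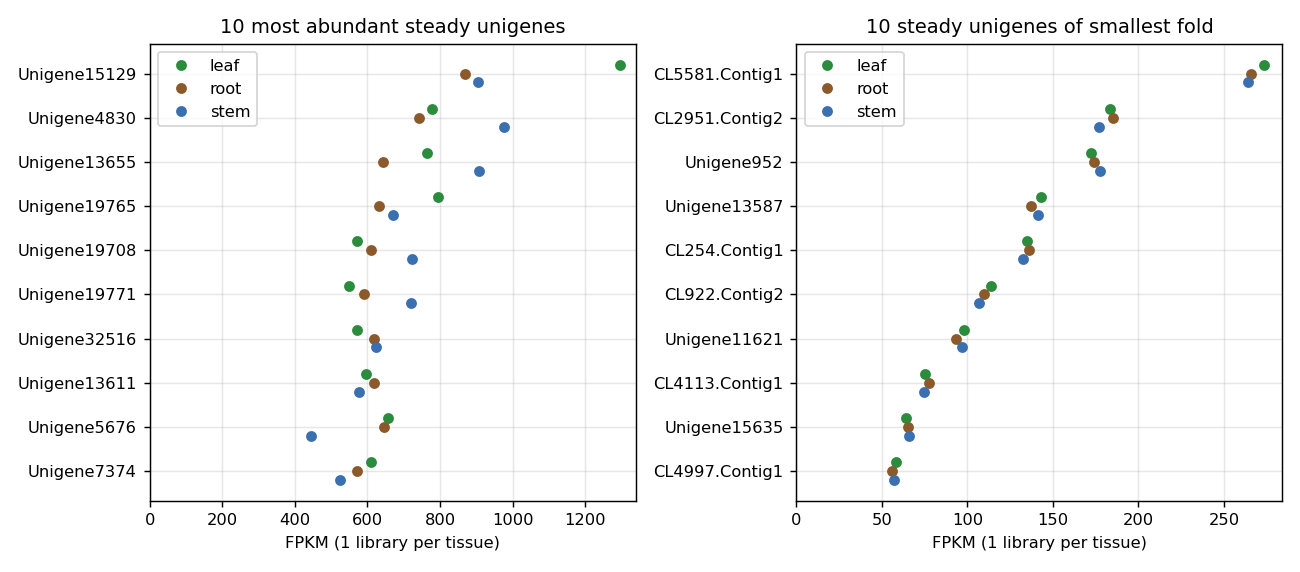
FPKM in leaves (green), roots (brown) and stems (blue) of the 10 most abundant steady unigenes (left) and of the 10 with the smallest fold between tissues (right), 1 point per library. On the left Unigene15129 reaches 1296 FPKM in leaves against 867.6 in roots and 905.4 in stems, and on the right the 3 points of every unigene nearly coincide.

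The fold of the highest over the lowest tissue had a median of 1.29 over the 304 unigenes. It was below 1.1 for 28 of them, between 1.1 and 1.2 for 58, between 1.2 and 1.3 for 73, between 1.3 and 1.4 for 77, and above that for 68. The smallest fold was that of Unigene15635, with 64.4 FPKM in leaves, 65.1 in roots and 65.7 in stems, a 1.022-fold difference. CL254.Contig1 followed with 135.0 FPKM in leaves, 135.8 in roots and 132.4 in stems, and then Unigene952 with 172.0, 173.9 and 177.6 FPKM. CL5581.Contig1, the most abundant of the 10 most even, had 273.3 FPKM in leaves, 266.0 in roots and 264.1 in stems. The other 6 were CL4113.Contig1, Unigene13587, CL4997.Contig1, CL2951.Contig2, Unigene11621 and CL922.Contig2, with geometric means from 57.2 to 182.0 FPKM and folds from 1.04 to 1.06. Among the clusters of these 10, only CL2951 was past 1.5-fold in its sum, at 1.608-fold. Its other contig, CL2951.Contig1, had 176.2 FPKM in leaves, 87.4 in roots and 46.5 in stems. None of the 10 most even was among the 10 most abundant. Sampling error within a library is unknown here, because read counts were not used, and so folds this small cannot be ranked against each other.

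The limits cut through a continuous range of values. Just inside 50 FPKM lay Unigene5483, lowest in stems at 50.1 FPKM, CL5289.Contig4, lowest in stems at 50.2, and CL11942.Contig2, lowest in stems at 50.2. Just outside lay CL6525.Contig2, lowest in stems at 49.8 FPKM, CL821.Contig2, lowest in roots at 49.8, and Unigene17376, lowest in stems at 49.8. At the fold limit, CL403.Contig4 was inside at 1.499-fold, with 82.3 FPKM in leaves, 54.9 in roots and 70.1 in stems, beside Unigene15129 and Unigene3349. CL801.Contig3, with 236.0, 157.4 and 171.7 FPKM in the same order, was outside at 1.50003-fold, as were CL8997.Contig2 at 1.501-fold and CL6390.Contig1 at 1.501-fold. There were 68 members between 1.4-fold and the limit, and 65 other abundant unigenes between the limit and 1.6-fold.

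In all, 1265 unigenes had at least 50 FPKM in every tissue, and the 304 steady ones were 24.0% of these. This share was fixed in part by the lower limit, which an uneven unigene is less likely to pass. Among the 2099 unigenes with a geometric mean of at least 50 FPKM and more than 1 FPKM in every tissue, 367 or 17.5% were below 1.5-fold, and among all 24,504 unigenes above 1 FPKM in every tissue 3707 or 15.1% were. By level, the share below 1.5-fold was 14.7% at a geometric mean of 1 to 5 FPKM, 12.7% at 5 to 10, 16.9% at 10 to 25, 17.0% at 25 to 50, 19.5% at 50 to 100, 14.6% at 100 to 200, 15.2% at 200 to 400 and 18.3% above that. The share at the deposited scale thus lay between 12.7% and 19.5% with no consistent trend by level, and evenness was not confined to abundant unigenes.

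Within the fold limit, leaves had the highest of the 3 values for 115 of the steady unigenes, roots for 93 and stems for 96. Leaves had the lowest value for 84, roots for 104 and stems for 116. Leaves were above stems for 171 of the 304 and above roots for 164, and roots were above stems for 153. All 6 possible orders of the tissues occurred, from 37 unigenes with roots highest and leaves lowest to 60 with leaves highest and stems lowest. The median log2 ratio over the members was 0.04 for leaves over roots, 0.04 for leaves over stems and 0.00 for roots over stems. The rule held every such ratio within 0.58 on the log2 scale, so these medians were bound to be small. The other 961 unigenes of at least 50 FPKM were highest in leaves in 46.7% of cases, in roots in 30.9% and in stems in 22.4%, against 37.8%, 30.6% and 31.6% of the steady ones. Their median fold was 2.29.

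These counts changed with the scaling. When each column was rescaled to the same sum, root values rose by a factor of 1.09 relative to leaves and 1.07 relative to stems. Of the 304 unigenes, 273 or 89.8% were still below 1.5-fold, and the median fold over all 304 was 1.28, while the largest reached 1.62. Most were bound to stay below it, because they were chosen by this limit and the factors moved any ratio by at most 1.09. Among all unigenes above 1 FPKM in every tissue, which were not chosen by the limit, 16.3% were below it. The 31 that passed the limit were highest in roots in the deposited values for 28, in stems for 2 and in leaves for 1. Unigene5676 was the only one of the 10 most abundant among them, at 1.55-fold. After this rescaling, roots held the highest value for 134 of the 304, leaves for 87 and stems for 83. The rise of root values by the factors favoured this count and the 28 of 31 above. Under the whole rule, with the floor of 50 applied to the rescaled values, 299 unigenes qualified, of which 265 were among the original 304 and 34 were not. The 299 were 23.7% of the 1262 unigenes above that floor, against 24.0% with the deposited values.

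Median-ratio scaling, which divides each column by the median ratio of its unigenes to their geometric means, moved the members far more. With factors taken over all unigenes above 0 in the 3 tissues, the factors were 1.18 for leaves, 0.755 for roots and 1.16 for stems. Of the 304, 88 or 28.9% were then still below 1.5-fold, beside 18.3% of all unigenes above 1 FPKM in every tissue, 57 were at 2-fold or more, and the largest fold was 2.32. All 304 were now highest in roots. This followed from the rule and the factors alone, since members could differ by at most 0.58 on the log2 scale and the factors of leaves over roots and of stems over roots differed by 0.64 and 0.62. For the same reason, only unigenes lowest in roots in the deposited values could stay below 1.5-fold, and all 88 that did were.

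**Figure D2:**
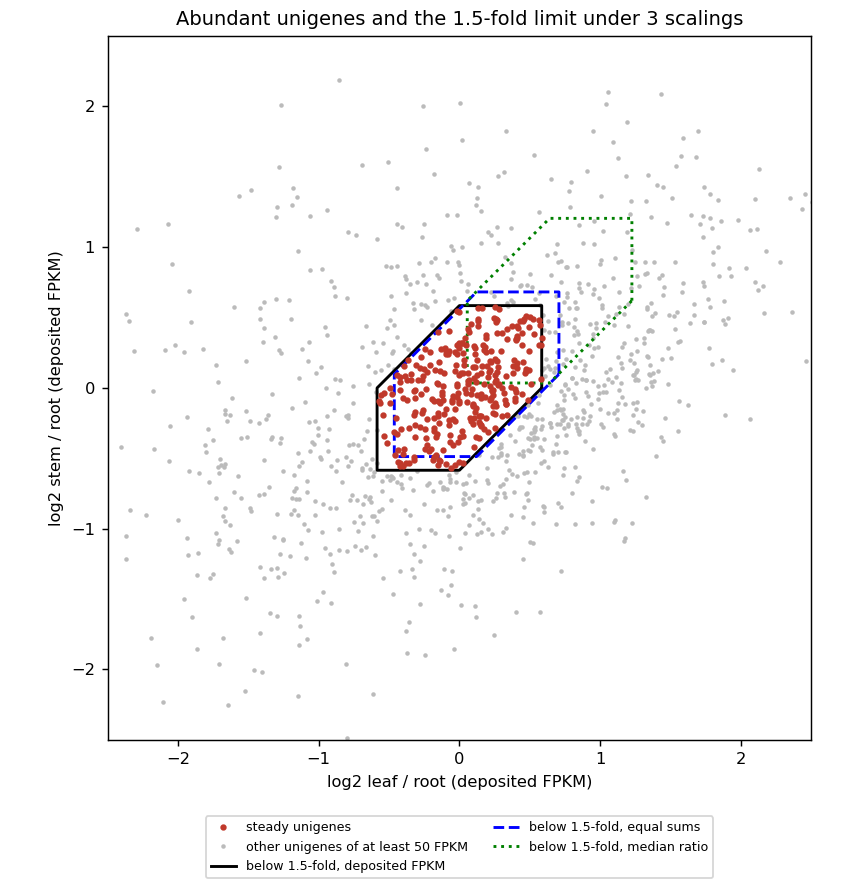
Log2 ratio of leaves to roots (horizontal) against stems to roots (vertical) in deposited FPKM, for the 304 steady unigenes (red) and the other 961 unigenes of at least 50 FPKM (grey), of which 52 lie outside the plotted range. Each outline encloses the ratios below 1.5-fold under 1 scaling, and the outline for median-ratio scaling over unigenes above 0 takes in only the upper right corner of the red points, with 88 of 304.

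The unigenes used for the factors decided how far the members moved. With factors over unigenes above 1 FPKM in every tissue, 138 of the 304 stayed below 1.5-fold, and with factors over unigenes above 10 FPKM, an alternative chosen after seeing the data, 240 did. Factors over the 1265 unigenes of at least 50 FPKM and Unigene11410 kept 267. Upper-quartile scaling kept 171, and equal sums without the 100 most abundant unigenes of each column kept 252. The size factor for roots was 0.755, 0.787, 0.896 and 0.973 as the lower limit of the unigenes used was raised from above 0 to 50 FPKM. 

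**Figure D3:**
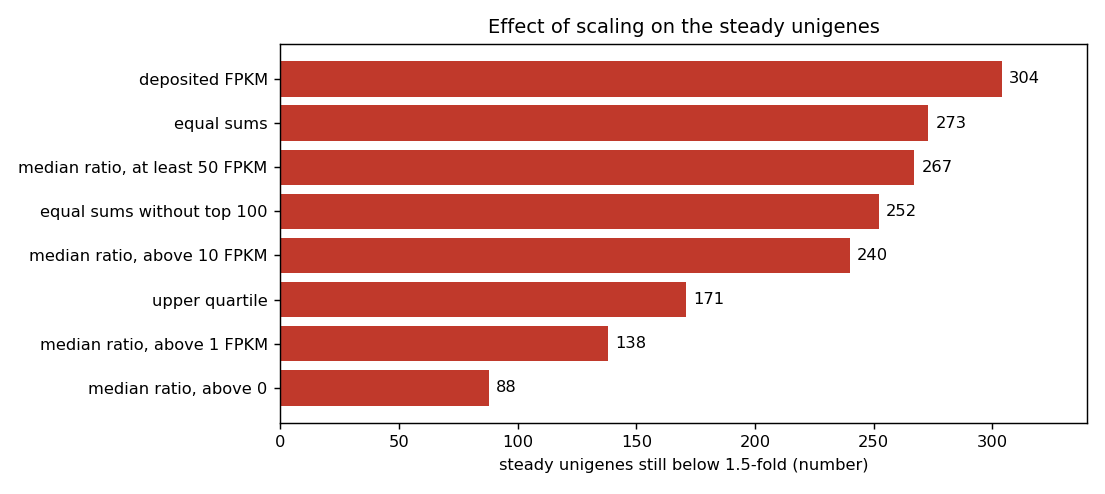
Number of the 304 steady unigenes whose highest value is below 1.5 times the lowest after each scaling, without applying the 50 FPKM floor again. The bars run from 304 with deposited FPKM and 273 with equal sums to 88 with median-ratio factors over unigenes above 0.

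The tissue ratios of the whole table changed with level in the same way. Over unigenes above 1 FPKM in every tissue, the median log2 ratio of leaves to roots was 0.57 at a geometric mean of 1 to 5 FPKM, 0.70 at 5 to 10, 0.49 at 10 to 25, 0.34 at 25 to 50, 0.16 at 50 to 100, 0.15 at 100 to 200, 0.13 at 200 to 400 and -0.25 above that. Roots had the lowest value for 56.9% of the unigenes at 1 to 5 FPKM and for 22.6% of the 115 unigenes of at least 400 FPKM. The median log2 ratio of leaves to stems stayed between 0.03 and 0.27 at all of these levels. A unigene with equal values in leaves and roots was thus closer to the median of its level at 50 to 400 FPKM than at lower levels. With the median-ratio factors over unigenes above 0, the share below 1.5-fold was 18.3% at 1 to 5 FPKM and 13.2%, 12.01%, 10.5% and 7.0% in the 4 levels from 50 FPKM upwards.

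**Figure D4:**
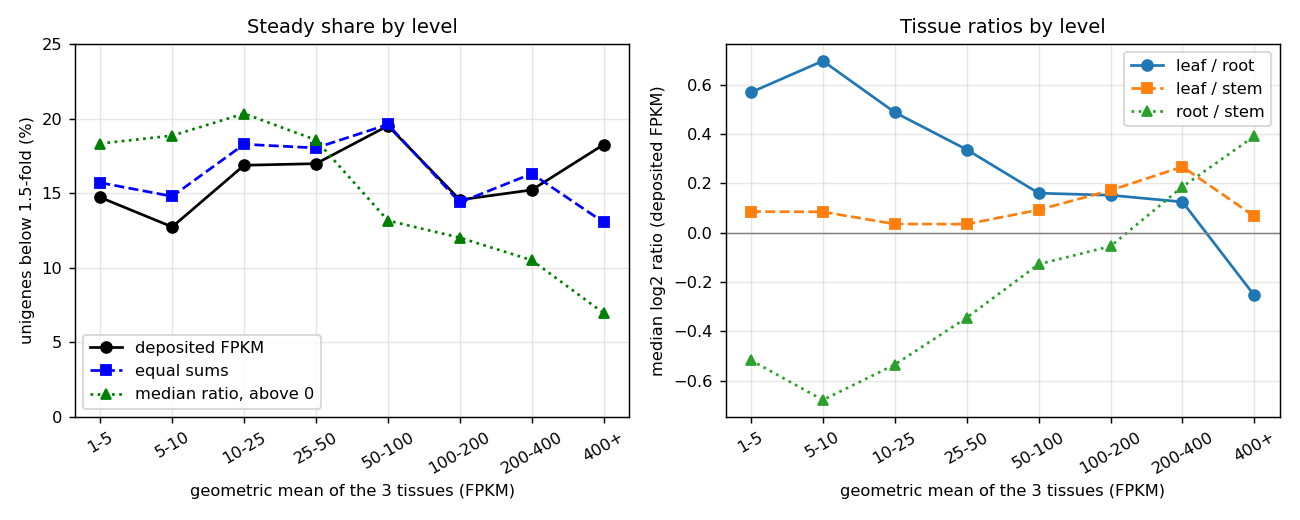
Left, share of unigenes below 1.5-fold by geometric mean FPKM, with deposited values (black), equal sums (blue) and median-ratio factors over unigenes above 0 (green). Right, median log2 ratio between tissues by level in deposited FPKM, where leaves over roots runs from 0.57 at 1 to 5 FPKM to -0.25 at 400 FPKM and above; no error is drawn because there was 1 library per tissue.

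Of the 304 unigenes, 83 stayed below 1.5-fold under the deposited values and all 7 other scalings. The factors over unigenes above 0 left only unigenes lowest in roots in the deposited values, which all 83 were by construction. Leaves were highest for 47 of them and stems for 36, and 42 were singletons. Their median geometric mean was 102 FPKM, close to that of all members. Unigene4830, Unigene13655 and Unigene19765 were among them, and so were Unigene13587, with 143.0 FPKM in leaves, 137.1 in roots and 141.5 in stems, and Unigene11621, with 98.1, 93.6 and 97.1 FPKM. The abundant ones further down were CL11887.Contig5, with 565.2 FPKM in leaves, 406.9 in roots and 443.1 in stems, CL30.Contig2, with 384.0, 282.1 and 370.6, and Unigene11671, with 349.4, 319.6 and 340.5. CL3095.Contig1, Unigene19856 and Unigene19695 had geometric means between 272.5 and 292.2 FPKM. CL30.Contig2 and Unigene19695 were 1.17-fold between their extreme tissues after median-ratio scaling over unigenes above 0, less than the 1.36-fold and 1.35-fold of the deposited values. The evenness of CL30.Contig2 did not hold for its cluster, whose deposited sum was 1.684-fold. Its other contig, CL30.Contig1, had 157.2 FPKM in leaves, 158.9 in roots and 372.1 in stems. The sums of CL11887 and CL3095 were 1.437-fold and 1.228-fold. Unigene11671 had the smallest fold of all members with equal sums, 1.008. Unigene15129 passed 7 of the 8 scalings, counting the deposited one. At the other end, 11 unigenes were below 1.5-fold in the deposited values alone, and all 11 were highest in roots and lowest in leaves. All 7 other scalings raised roots relative to leaves, by factors from 1.09 to 1.56, so the factors themselves favoured this order. The most abundant of these 11 was CL2685.Contig8, with 333.3 FPKM in leaves, 494.0 in roots and 458.0 in stems.

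The assembly names contigs of similar sequence as members of 1 cluster (CL) and the others as singletons (Unigene). Among the steady unigenes 142 were singletons and 162 were contigs of 130 clusters. Singletons made up 46.7% of the steady unigenes and 40.2% of the other abundant unigenes. They were 39.0% of the unigenes above 1 FPKM in every tissue and 56.6% of the whole table. Of the abundant singletons 26.9% were steady, and of the abundant contigs 22.0%. Fragments that fit several contigs of a cluster were divided among them by RSEM, so the value of a single contig is less certain than the sum of its cluster.

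Of the 127 clusters with 2 or more contigs in the table, 103 were below 1.5-fold in their sum, with a median fold of 1.32 and a highest fold of 2.32. The steady contigs held a median of 72.5% of that sum in leaves, 79.0% in roots and 78.3% in stems, so the sums were not independent of the rule. Among the other 721 clusters of 2 or more contigs with a sum of at least 50 FPKM in every tissue, 17.1% were below 1.5-fold. These 721 held no steady contig, so the difference between the shares was set in part by the rule on both sides.

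The clusters held 310 other contigs, of which 61 were listed at 0 in at least 1 tissue and 210 were above 1 FPKM in all 3. The rule had already taken out every contig of at least 50 FPKM that was below 1.5-fold, so the 38 others of that level were past the fold limit by construction. Only the 172 contigs above 1 FPKM in every tissue and below 50 FPKM in at least 1, a limit set after the values were seen, were free to fall on either side. Of these 172, 42 or 24.4% were below 1.5-fold, against 14.1% of 14,039 contigs of other clusters in the same range, and their median fold was 2.07 against 2.48. The 172 were more abundant, with a median geometric mean of 14.5 FPKM against 6.02. By level, the share below 1.5-fold was 16.2% of 74 contigs against 13.8% at a geometric mean of 1 to 10 FPKM, 26.7% of 30 contigs against 16.4% at 10 to 25, and 29.2% of 48 contigs against 14.9% at 25 to 50. These levels do not cover all of the 172, because contigs with a geometric mean of at least 50 FPKM were not compared by level. Contigs of 1 cluster share fragments, and the part of this in the difference was not tested. The highest value of the 172 was in leaves for 90, in roots for 27 and in stems for 55. Among all unigenes above 1 FPKM in every tissue, 46.1% were highest in leaves, 17.4% in roots and 36.6% in stems. A lead of leaves and a low count for roots were thus not particular to the 172. This background also held singletons and unigenes of at least 50 FPKM in every tissue.

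**Figure D5:**
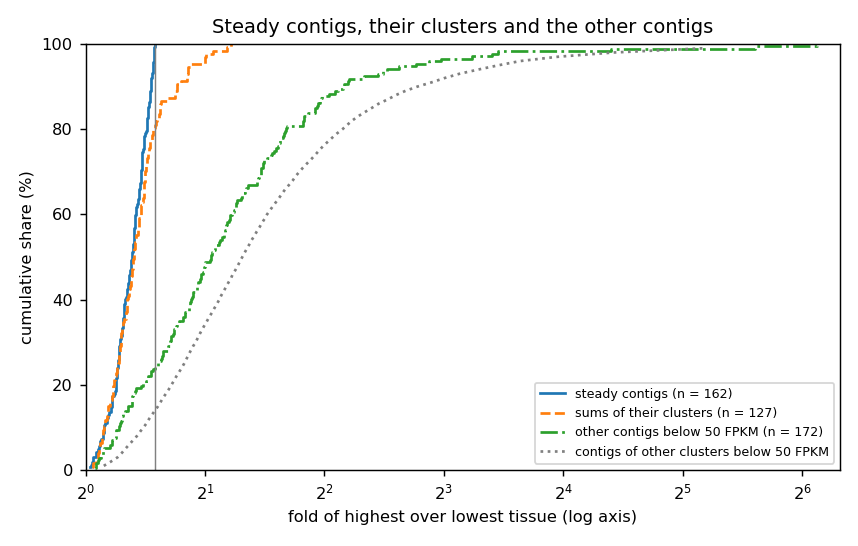
Cumulative share of the steady contigs, of the sums over their clusters, of the 172 other contigs of these clusters below 50 FPKM in at least 1 tissue, and of contigs of other clusters in the same range, by the fold of the highest over the lowest tissue (log axis; the vertical line is 1.5-fold). At the line, 24.4% of the 172 contigs and 14.1% of the contigs of other clusters are reached, and the steady contigs end there by the rule.

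The clusters with the most steady contigs were CL3683, with 5 of its 7 contigs, and CL3662 and CL2765, with 3 each. The 5 contigs of CL3683 had similar levels in the 3 tissues, led by CL3683.Contig6 with 256.7 FPKM in leaves, 212.8 in roots and 243.0 in stems. CL3683.Contig1 had 143.1 FPKM in leaves, 118.3 in roots and 120.0 in stems, and CL3683.Contig2 had 135.6, 104.2 and 116.0. CL3683.Contig5 was instead highest in stems, at 94.3 FPKM in leaves, 99.7 in roots and 117.7 in stems, while CL3683.Contig3 was lowest there, with 101.0, 81.9 and 71.2. The cluster summed to 770.2 FPKM in leaves, 640.4 in roots and 699.5 in stems, a fold of 1.203.

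CL3662 summed to 1016 FPKM in leaves, 877.2 in roots and 868.7 in stems, and over 99% of this came from its 3 steady contigs. CL3662.Contig5 contributed 488.4 FPKM in leaves, 415.3 in roots and 409.8 in stems, CL3662.Contig6 351.4, 272.5 and 274.4, and CL3662.Contig2 168.8, 187.9 and 176.3. In CL2765 the steady contigs did not share a direction. CL2765.Contig2, with 272.0 FPKM in leaves, 264.3 in roots and 337.8 in stems, and CL2765.Contig6, with 218.5, 230.2 and 305.4, were highest in stems. CL2765.Contig4, with 74.6, 86.9 and 63.6, was lowest there. A further contig of this cluster, CL2765.Contig1, had 37.2 FPKM in leaves, 86.6 in roots and 119.3 in stems. In 16 of the 27 clusters with 2 or more steady contigs all of these were highest in the same tissue. The share expected of unrelated contigs was not worked out. Which tissue was highest also depended on the scaling, since all 304 members were highest in roots with median-ratio factors over unigenes above 0.

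The least even cluster with a steady contig, by its sum, was CL5053, described after its values were seen. Its steady contigs were CL5053.Contig1, with 211.1 FPKM in leaves, 141.6 in roots and 192.8 in stems, and CL5053.Contig2, with 159.9 in leaves, 108.3 in roots and 151.7 in stems. Beside them, CL5053.Contig3 had 124.6 FPKM in leaves, 1.78 in roots and 97.2 in stems, and CL5053.Contig4 had 91.9, 1.89 and 59.6. The sum was 588.5 FPKM in leaves, 253.6 in roots and 501.3 in stems. Contigs that were nearly absent from roots thus stood in 1 cluster with contigs that stayed within 1.5-fold. In CL279 the steady contig, CL279.Contig4, had 127.2 FPKM in leaves, 146.6 in roots and 108.7 in stems, while CL279.Contig2 had 139.0 in leaves, 91.4 in roots and 35.3 in stems.

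None of the 7 unigenes whose open reading frames were cloned in the study reached 50 FPKM in all tissues, so none could be among the steady ones. The enzymes they encode belong to the mevalonate and methylerythritol phosphate pathways, which make the precursors of terpenoids. Of the 7, 1 unigene, Unigene7594 (ArMVD, mevalonate diphosphate decarboxylase), was below 1.5-fold, beside 15.1% of all unigenes above 1 FPKM in every tissue. It was at 1.37-fold, with 16.2 FPKM in leaves, 12 in roots and 11.8 in stems. The other 6 ranged from 2.28-fold for CL1159.Contig3 (ArDXR) to 35.7-fold for Unigene11038 (ArDXS, the entry enzyme of the methylerythritol phosphate pathway), which had 4.16 FPKM in leaves, 2.01 in roots and 71.8 in stems.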

How the data were processed

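Messenger RNA purified from the total RNA of leaves, roots and stems was sequenced as 1 library per tissue made from 5 plants pooled. The authors assembled the clean reads de novo with Trinity and TGICL, mapped each library to the unigenes with Bowtie2 and estimated expression with RSEM. The deposited values are FPKM, written to 2 decimals, and no genome was used. Read counts, unigene lengths, sequences and annotation were not used here, so depth behind single values is unknown.

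Members were unigenes of at least 50 FPKM in all tissues with a fold below 1.5, without Unigene11410. Members and alternatives were chosen with earlier results of these data known. Folds were taken without a pseudocount. Scalings divided each column by its sum, its upper quartile or a median-ratio factor. Unigenes named were the 10 most abundant, the 10 most even, the 10 most abundant staying below 1.5-fold with equal sums and with median-ratio factors over unigenes above 0, the 3 on either side of each limit, the members of the 3 clusters with the most members, and the 7 cloned unigenes. Any other was named after its values were seen. The rule was checked on simulated data in which all other unigenes lay well past the fold limit, so values near the limits were not tested. Of the factors, only the median-ratio ones over unigenes above 1 FPKM were checked, also on simulated data. Python 3.11.15, numpy 2.4.6, pandas 2.3.3 and matplotlib 3.10.9 were used.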

Additional observations from a re-analysis of the deposited data

How the results depend on the processing

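The number of steady unigenes, 304 as reported, stayed between 213 and 319 under the 7 other scalings, and which unigenes qualified changed more than their number: 84 of the 213 found with median-ratio factors over unigenes above 0 were among the 304. The number depended on the limits, with 646 at a floor of 25 FPKM, 126 at a floor of 100, 4351 among all unigenes above 0 in every tissue, 127 at a stricter fold limit, 630 at a fold limit of 2, and 142 with singletons only. A pseudocount of 1 gave 310, summing contigs by cluster 371, and a floor on the geometric mean 367. The number highest in leaves, 115 as reported, was 58 with median-ratio factors over unigenes of at least 50 FPKM. With factors over unigenes above 0 it was 0, and 304 were highest in roots and 0 in stems. The median log2 ratio of leaves to roots, 0.04 as reported, was -0.082 with equal sums and -0.10, -0.23 and -0.60 with median-ratio factors over unigenes of at least 50, above 10 and above 0 FPKM. The median for leaves over stems was -0.14 with factors over unigenes of at least 50 FPKM, and that for roots over stems was 0.62 with factors over unigenes above 0. Of the 42 members named by rule, 41 stayed below 1.5-fold with equal sums and 16 with median-ratio factors over unigenes above 0, and 10 of the 42 were chosen for staying below it. With 1 library per tissue no replicate could be left out. No paired analysis was possible because there were no replicates. Sampling error and the variation between plants remain unknown.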

Other observations

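Evenness was also found in clusters that hold no steady contig. Of the 721 such clusters with 2 or more contigs and a sum of at least 50 FPKM in every tissue, 123 were below 1.5-fold in their sum. In 59 of these at least 2 contigs reached 30 FPKM in some tissue, and in 32 of the 59 the leading contigs were highest in different tissues, often by small folds. In 4 of the 59 both leading contigs were also over 2-fold between tissues. No share expected of unrelated contigs was worked out, and 3 of the 4 are described. In CL10023, with 10 contigs, the sum was 792.9 FPKM in leaves, 1017 in roots and 970.3 in stems, while CL10023.Contig9 had 72.1, 164.6 and 404.2 FPKM and CL10023.Contig3 had 276.3, 287.2 and 116.5. In CL2370 the sum was 281.8 FPKM in leaves, 261.8 in roots and 216.2 in stems, with 215.6, 100.1 and 189.4 FPKM for CL2370.Contig4 and 19.3, 99.0 and 8.31 for CL2370.Contig3. In CL10452 the sum was 123.2 FPKM in leaves, 100.9 in roots and 111.8 in stems, with 102.0, 53.5 and 38.9 FPKM for CL10452.Contig1 and 11.6, 27.3 and 39.3 for CL10452.Contig3. These clusters were chosen after their values were seen. Whether their contigs are transcripts of 1 gene, of gene copies or products of the division of shared fragments was not tested.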
